A study of Rattus norvegicus with 12 samples.

Results

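The late-induced set holds the probes whose signal in microglia was at least 2-fold higher with alpha-synuclein medium than with control medium at 24 h, while the media differed by less than 0.5 on the log2 scale at 6 h. It has 189 members among 22523 probes on the array, or 0.839%. Members were chosen from these same arrays. Group means of 3 quantile-normalized log2 signals gave a difference between the media at each time, alpha-synuclein minus control, and a member had a difference within ±0.5 at 6 h and of at least 1 at 24 h. The differences between the media are therefore given as a description. Of the 488 probes with a difference of at least 1 at 24 h, 256 already stood at least 0.5 higher at 6 h and 43 stood at least 0.5 lower. One gene symbol was available for 132 members, which stand for 131 genes, and 57 members carry no symbol in the annotation used.

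The arrays hold total RNA of primary rat microglia, the resident macrophages of the brain, kept in culture. The groups, of 3 arrays each, were alpha-synuclein medium (aSCM) for 24 h, control medium (LZCM) for 24 h, aSCM for 6 h and LZCM for 6 h. Both media were collected from SH-SY5Y, a line of human neuroblastoma cells that had been differentiated, and the cells had received an adenoviral vector at a multiplicity of infection of 100. The vector carried human alpha-synuclein for aSCM and LacZ, which encodes beta-galactosidase, for LZCM. All 4 groups thus received serum-free medium of virus-infected human cells, conditioned for 18 h and concentrated 5-fold. The microglia themselves carried no transgene. The study asked how alpha-synuclein released by neuronal cells acts on microglia through the receptor TLR2. Whether a group's 3 samples are separate cultures or animals is not stated in the labels. Each p-value therefore sets a difference only against the spread between these samples, and that spread may be technical.

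As background, alpha-synuclein is a presynaptic protein that aggregates in Parkinson's disease, and microglia can sense it outside cells through Toll-like receptors. Ligand binding leads through the adaptor MyD88 to NF-kB, and a first wave of cytokine and chemokine genes follows within hours. Slower changes in macrophages after such a stimulus include their signalling proteins, their oxidase, their cytoskeleton and their use of glucose.

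Each array had between 10871 and 11443 probes above background. Arrays of one group correlated at 0.996 to 0.998 over the deposited log2 values, and none held identical values. All 189 members passed the filter of signal above background on at least 3 of 12 arrays, as did 54.8% of all probes, and all lay above background on the 3 aSCM arrays at 24 h. Most members were also detected in control medium: 171 members (90.5%) were above background on all 6 LZCM arrays, as were 44.6% of all probes. In 4 members (Cmahp, Pon1, Il9 and Tuba8) no LZCM array exceeded background at either time.

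The difference between the media at 24 h had a median of 1.34 on the log2 scale over the members, or 2.53-fold, and reached 3.54, or 11.6-fold. In 21 members the aSCM signal was at least 4-fold higher. At 6 h the median difference was 0.03. Values of the 3 aSCM and the 3 LZCM arrays at 24 h did not overlap for any of the 189 members, against 21.6% of all probes with aSCM higher, and limma called all 189 at an adjusted p under 0.05, against 30.8% of the 12351 tested probes called higher. Since the rule required this difference, nothing is read from these counts. A difference under 0.5 at 6 h is not the same as none, because the spread between arrays was small: 100 members were called at 6 h, 59 higher and 41 lower in aSCM, where 58.1% of tested probes were called, 25.9% higher and 32.2% lower. Over the members, the array medians were 10.21 to 10.26 in aSCM at 24 h, against 8.74 to 8.83 in LZCM at 24 h. At 6 h they were 9.26 to 9.31 in aSCM, against 9.19 to 9.25 in LZCM. The control arrays at 24 h thus lay below both groups of 6 h arrays.

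**Figure D1:**
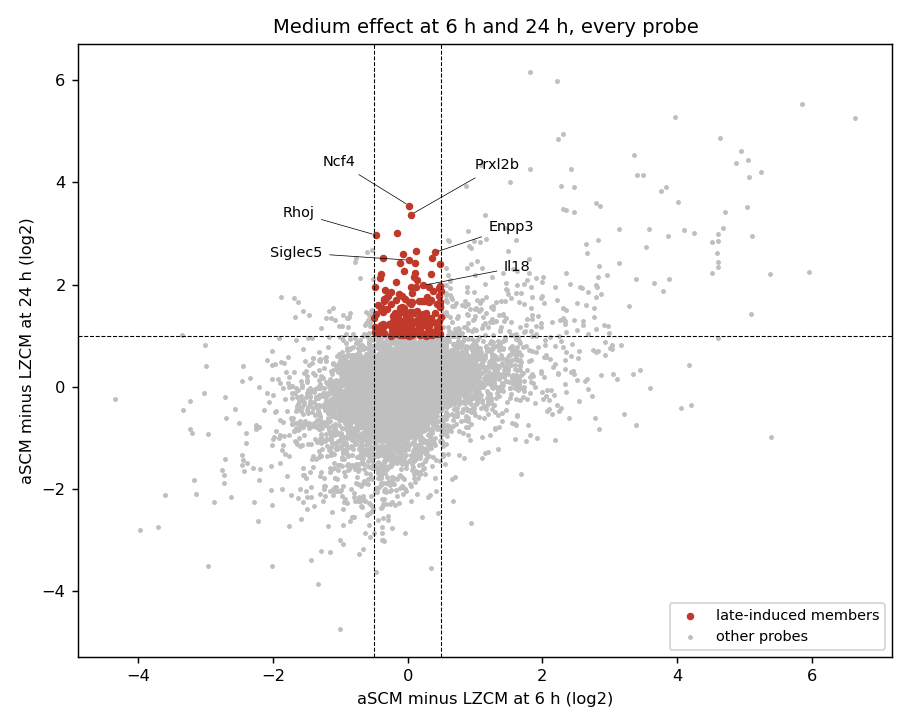
Each point is 1 of 22523 probes, with the aSCM minus LZCM difference at 6 h on the x axis and at 24 h on the y axis, both log2 with n = 3 arrays a group. Dashed lines mark the rule (±0.5 and 1), red points are the 189 members, grey points are the other probes, and 6 members are labelled, of which Ncf4 lies highest at 3.54.

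For the description, 79 of the named genes were sorted into 8 groups by their known roles after their values had been seen. The group of the oxidase and the cytoskeleton held the largest difference of the set. Ncf4, which encodes p40phox, a cytosolic subunit of the phagocyte NADPH oxidase, had log2 signals of 12.67, 12.71 and 12.79 in aSCM at 24 h, against 9.33, 9.08 and 9.13 in LZCM. At 6 h its signals were 10.62, 10.49 and 10.36 in aSCM, against 10.33, 10.55 and 10.52 in LZCM, and the media overlapped. The difference at 24 h was 3.54 (SE 0.08), or 11.6-fold. It arose from both sides: at 24 h against 6 h, the log2 change was 2.23 in aSCM and -1.29 in LZCM.

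The other oxidase subunits on the list for oxidative stress and NRF2 targets followed Ncf4 only in part. Cybb, the catalytic subunit of the same complex, differed between aSCM and LZCM by 1.40 at 24 h and by -0.58 at 6 h, which kept it outside the set. Ncf1, the p47phox subunit, differed by 0.58 at 24 h and by -0.97 at 6 h, and Cyba, the membrane partner of Cybb, by 0.37 and -0.12. Rac2, the small GTPase that activates the oxidase in blood phagocytes, is a member. Its signals at 24 h were 15.49, 15.39 and 15.40 in aSCM, against 14.03, 13.93 and 14.03 in LZCM. These aSCM values lie close to the highest signals deposited for any probe, 15.56 to 15.93 per array, where a scanner can saturate, and an effect of this on the fold was not tested. Gsr, glutathione reductase, was 1.65 higher in aSCM at 24 h. On that list of 30 probes, Ncf4 and Gsr are the 2 members. At 24 h, 16 of the 28 tested probes of the list were called higher in aSCM and 6 lower. Over all tested probes, 30.8% were called higher and 29.2% lower. The 16 include the 2 members, for which the rule required a higher signal.

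Rhoj, known mainly from endothelial cells, had signals of 10.89, 10.73 and 10.61 in aSCM at 24 h, against 7.81, 7.75 and 7.77 in LZCM. At 6 h it was lower in aSCM, with 7.28, 7.35 and 7.46, against 7.77, 7.89 and 7.86 in LZCM. The difference at 24 h was 2.97, or 7.84-fold, and the LZCM change at 24 h against 6 h was -0.07 (limma, adjusted p = 0.538). Rhoj thus differs from Ncf4 in that nearly all of its late difference lay in the aSCM arrays. Msn (moesin, which links actin to the membrane) was 1.88 higher in aSCM at 24 h, Twf1 (twinfilin, which binds actin monomers) 1.70, Capg (an actin-capping protein) 1.19 and Cyfip1 (a subunit of the WAVE complex) 1.04.

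The largest group, leukocyte receptors and their signalling proteins, had 17 members with differences at 24 h from 1.03 to 2.48 and a median of 1.66. Itgam encodes CD11b, the integrin alpha chain that marks microglia and other myeloid cells. Its signals at 24 h were 11.09, 11.20 and 11.20 in aSCM, against 9.40, 9.58 and 9.44 in LZCM. At 6 h they were 10.22, 10.22 and 10.16 in aSCM, against 9.97, 10.01 and 9.98 in LZCM. The small difference at 6 h, 0.21, was without overlap, and the one at 24 h was 1.69.

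Lyn and Fgr, kinases of the Src family that act next to immune receptors, started from opposite sides. Lyn had 9.98, 9.98 and 10.02 in aSCM at 24 h, against 8.02, 8.03 and 8.04 in LZCM, and at 6 h it was already 0.47 higher in aSCM. Fgr had 10.61, 10.80 and 10.84 in aSCM at 24 h, against 8.83, 8.85 and 8.87 in LZCM, and at 6 h the difference was -0.34. Their differences at 24 h, 1.96 for Lyn and 1.90 for Fgr, were alike. Other signalling members were Dok2 (an adaptor that restrains kinase signals; 1.77), Hcls1 (a substrate of such kinases in blood cells; 1.66) and Ptpn7 (a phosphatase of blood cells; 1.07).

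Spi1, which encodes the myeloid transcription factor PU.1, had 11.47, 11.41 and 11.40 in aSCM at 24 h, against 9.84, 9.80 and 9.96 in LZCM. At 6 h it had 11.06, 11.07 and 11.64 in aSCM, against 10.76, 10.64 and 10.93 in LZCM. In aSCM the level at 24 h was 0.17 above that at 6 h (limma, adjusted p = 0.232), while in LZCM it fell by 0.91 (limma, adjusted p = 5.28e-06). The aSCM change rests on replicate 3 at 6 h, the high array: without it, a setting chosen after seeing the data, the change was 0.36 (limma, adjusted p = 0.00105), still smaller than that in LZCM. Siglec5, a receptor for sialic acid that inhibits signalling, had 9.97, 9.86 and 9.81 in aSCM at 24 h, against 7.42, 7.37 and 7.42 in LZCM, and the media overlapped at 6 h. Ms4a6a, a membrane protein of microglia and macrophages, was 1.52 higher in aSCM at 24 h, and Adgre1, the macrophage receptor F4/80, was 1.03 higher.

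**Figure D2:**
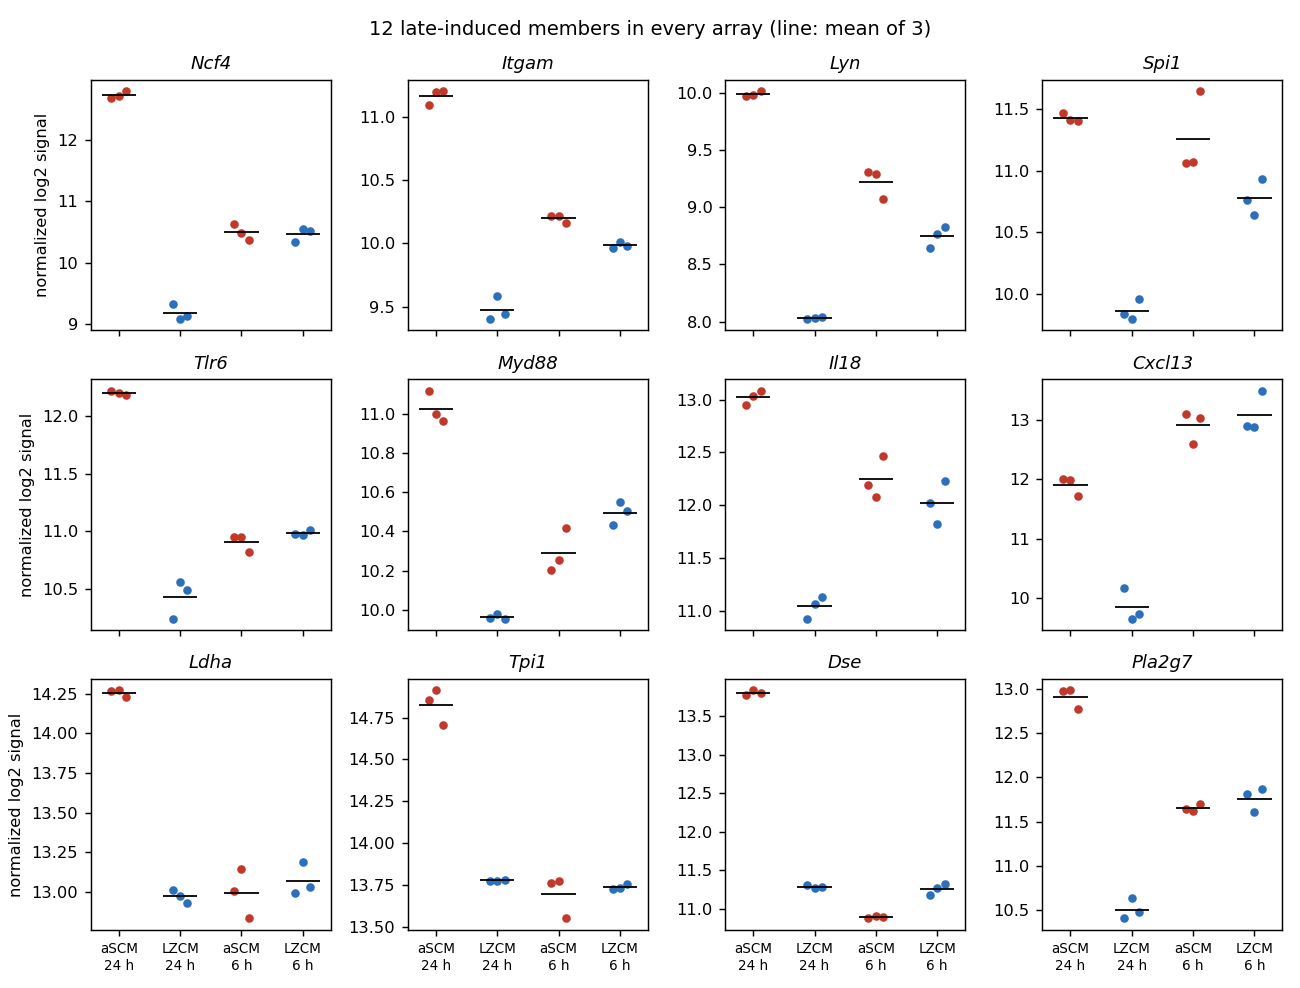
Each panel is 1 of 12 members, with normalized log2 signal on the y axis (the range differs by panel and does not start at 0), a point for each of 3 arrays in aSCM (red) and LZCM (blue) at 24 h and 6 h, and a line at the group mean. In all 12 panels the aSCM points at 24 h lie above the LZCM points at 24 h, and for Cxcl13 both 24 h groups lie below the 6 h groups.

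Pathogen sensing had 7 members. TLR6 forms the receptor for diacylated lipopeptides together with TLR2, the receptor the study is about. Tlr6 had 12.22, 12.20 and 12.18 in aSCM at 24 h, against 10.24, 10.56 and 10.49 in LZCM. The 6 h signals were 10.95, 10.95 and 10.82 in aSCM, against 10.98, 10.97 and 11.01 in LZCM. The difference was -0.08 at 6 h and 1.77, or 3.41-fold, at 24 h. Myd88, the adaptor of most Toll-like receptors, had 11.12, 10.9997 and 10.96 in aSCM at 24 h, against 9.96, 9.98 and 9.95 in LZCM, a difference of 1.06, and at 6 h the difference was -0.20.

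These 2 genes are the only members among the 40 probes of the list for the TLR and NF-kB pathway. Most of that list differed already at 6 h. At 6 h, 26 of its 38 tested probes were called higher in aSCM and 6 lower, with a median difference of 0.72, beside the 25.9% and 32.2% over all tested probes. At 24 h, 29 were called higher and 9 were not called, with a median of 0.54, where 30.8% of all tested probes were called higher. The 29 include the 2 members, for which the rule required a higher signal. Tlr2 itself was 0.92 higher in aSCM at 24 h and 1.03 higher at 6 h.

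Lacc1, a macrophage enzyme linked in humans to inflammatory disease, was 2.20 higher in aSCM at 24 h and 0.34 higher at 6 h. Mefv, which encodes pyrin, the sensor of an inflammasome, had 8.81, 8.68 and 8.61 in aSCM at 24 h, against 7.20, 7.28 and 7.32 in LZCM. At 6 h the order was opposite, with 7.12, 7.20 and 7.20 in aSCM, against 7.56, 7.68 and 7.69 in LZCM. Slc11a1, the phagosomal metal transporter NRAMP1, differed by 1.44 at 24 h. The MHC class I genes RT1-N3 and RT1-CE16 differed by 2.10 and 1.04, but rat class I genes are near-identical copies and a probe may read several of them. RT1-N3 is the only member among the 34 probes of the antigen presentation list. Psmb8, an immunoproteasome subunit on the same list, fell just short of the rule with 0.999. No probe of the interferon response list (25 probes) belongs to the set, which holds 0.839% of all probes. At 6 h, 19 of the 22 tested probes of this list had been called higher in aSCM, against 25.9% of all tested probes. The median difference of the list at 6 h was 1.03. The rule excluded probes that differed this much at 6 h, so nothing is read from the absence of members.

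Secreted mediators had 10 members. Il18 encodes a cytokine that caspase-1 matures. Its signals were 12.95, 13.03 and 13.08 in aSCM at 24 h, against 10.92, 11.06 and 11.13 in LZCM. At 6 h they were 12.19, 12.08 and 12.47 in aSCM, against 12.02, 11.82 and 12.22 in LZCM. The difference of 1.98 at 24 h was 3.95-fold, and at 6 h the media overlapped.

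Cxcl13, a chemokine that attracts B cells, met the rule without any rise in aSCM. It had 12.004, 11.98 and 11.71 in aSCM at 24 h, against 10.18, 9.65 and 9.74 in LZCM. After 6 h they were 13.09, 12.59 and 13.03 in aSCM, against 12.89, 12.87 and 13.48 in LZCM. Both media were lower at 24 h than at 6 h, with a log2 change of -1.005 in aSCM and of -3.23 in LZCM, and the LZCM fall had a limma adjusted p of 5.75e-11. Pf4, platelet factor 4, was the other member on the chemokine list of 29 probes. It differed by 1.06 at 24 h.

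S100a8, a subunit of calprotectin, had 9.25, 9.39 and 9.33 in aSCM at 24 h, against 6.74, 6.81 and 6.87 in LZCM, where no array exceeded background. The difference is therefore a bound, and S100a8 was at least 5.13-fold higher in aSCM. Its partner S100a9 was not above background on any aSCM or LZCM array at 24 h, nor were Elane and Ltf. Of the 3 tested probes of the neutrophil list, limma called S100a8 and Camp, the precursor of an antimicrobial peptide, higher in aSCM at both times. The remaining tested probe was called lower in aSCM at 6 h and was not called at 24 h. Camp, too, was above background on no LZCM array at 24 h, and at 6 h it differed by 0.37. The whole neutrophil list of 7 probes, S100a8 included, summed to a linear signal of 1360 to 1456 in aSCM at 24 h, against 792 to 799 in LZCM. The bound uses, for each dim array, the lowest signal that counted as above background. Enpp3, an ectoenzyme that splits nucleotides, was at least 4.77-fold higher by the same measure. At 6 h the aSCM signal was already 0.40 higher for Enpp3 and 0.36 higher for S100a8. In 5 further members without LZCM signal at 24 h the bounds ran from 1.58-fold (Il9) to 2.33-fold (Cmahp). With these 7 at their bounds the median difference of the set was 1.32. C1r, a protease of the classical complement pathway, was 1.63 higher in aSCM at 24 h and Fgl2, a fibrinogen-like protein of macrophages, 1.81 higher.

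Enzymes of glycolysis formed a compact group. Ldha, lactate dehydrogenase A, had 14.27, 14.27 and 14.23 in aSCM at 24 h, against 13.01, 12.98 and 12.93 in LZCM. At the earlier time it had 13.01, 13.14 and 12.83 in aSCM, against 12.99, 13.19 and 13.03 in LZCM. The 6 h values of both media and the LZCM values at 24 h thus shared one range, and only the aSCM arrays at 24 h stood above it. Tpi1, triosephosphate isomerase, had 14.85, 14.91 and 14.71 in aSCM at 24 h, against 13.77, 13.78 and 13.78 in LZCM, a difference of 1.05. The remaining 3 were Pkm (pyruvate kinase; 1.32), Pgk1 (phosphoglycerate kinase; 1.19) and Eno1 (enolase; 1.07). The Pkm probe was dim, with a mean of 7.05 in LZCM at 24 h, where the lowest signals above background were 6.96 to 6.97. With background correction and an offset of 16, its difference at 24 h was 1.87.

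In the list for glycolysis and glucose uptake, these 5 made up 20% of the 25 probes, against 0.839% of the whole array. All 25 passed the filter on low signal, as did 54.8% of all probes. The closer comparison is therefore 189 members among the 12351 tested probes. At 24 h, 20 of the 25 were called higher in aSCM and 4 lower, with a median difference of 0.64, where the calls over all tested probes came to 30.8% higher and 29.2% lower. The 20 include the 5 members, for which the rule required a higher signal, so this count and median are partly set by the choice of members. At 6 h, 11 were called higher and 6 lower, with a median of 0.14, against 25.9% and 32.2% of all tested probes. Both Aldoa probes (aldolase) lay just below the rule at 24 h, with 0.97 and 0.96. Slc16a3, a lactate exporter, had the largest difference at 24 h, 3.06, but also 0.90 at 6 h. Aldoc, the aldolase of astrocytes, differed by -2.26 at 24 h.

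**Figure D3:**
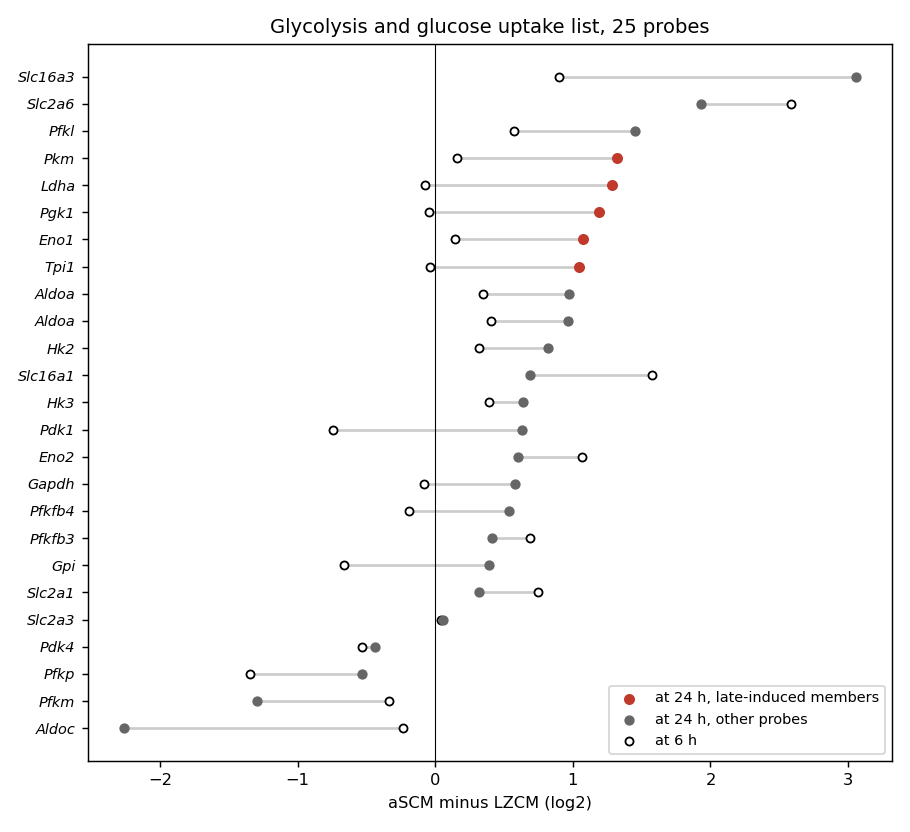
The x axis gives the aSCM minus LZCM difference (log2, n = 3 arrays a group) for the 25 probes of the glycolysis and glucose uptake list, with filled points at 24 h and open points at 6 h. The 5 members (red) lie between 1.05 and 1.32 at 24 h and between -0.08 and 0.16 at 6 h.

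Lipid and inositol genes had 11 member probes of 10 genes. Pla2g7, the enzyme that inactivates platelet-activating factor, had 12.98, 12.99 and 12.77 in aSCM at 24 h, against 10.40, 10.63 and 10.47 in LZCM. Its 6 h values were 11.64, 11.62 and 11.70 in aSCM, against 11.81, 11.61 and 11.86 in LZCM. At 24 h against 6 h, the change was 1.26 in aSCM and -1.26 in LZCM, so both contributed equally. Nr1h3, the oxysterol receptor LXR-alpha, differed by 1.55 at 24 h and by -0.37 at 6 h. Stard4, a carrier of cholesterol between membranes, differed by 1.72, Nceh1, which hydrolyses cholesterol esters, by 1.37, and Ugcg, which makes glucosylceramide, by 1.37.

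Among glycan and proteoglycan genes, Dse, the epimerase that turns chondroitin into dermatan sulfate, had 13.77, 13.84 and 13.81 in aSCM at 24 h, against 11.31, 11.27 and 11.28 in LZCM. After 6 h the values were 10.87, 10.90 and 10.89 in aSCM, against 11.18, 11.26 and 11.32 in LZCM. The LZCM level was the same at both times within 0.03, and aSCM was below it at 6 h and 5.74-fold above it at 24 h. Nans, which makes sialic acid, differed by 1.62 at 24 h, Neu1, the lysosomal sialidase, by 1.15, and Chst12, a chondroitin sulfotransferase, by 1.21. Vesicle traffic had 9 members with differences from 1.00 to 1.68 at 24 h. These include the SNARE protein Stx3 (1.68), Stxbp2 (1.19), which binds syntaxins, and Napg (1.05), which helps to take SNARE complexes apart.

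The 52 named members in none of these groups had a median difference of 1.22 at 24 h. The highest was Prxl2b, a peroxiredoxin-like protein that makes prostaglandins of the F type. It had 12.35, 12.39 and 12.34 in aSCM at 24 h, against 8.92, 9.04 and 9.01 in LZCM. The earlier arrays had 9.02, 8.88 and 8.93 in aSCM, against 8.86, 8.84 and 8.99 in LZCM. The 9 arrays other than aSCM at 24 h spanned one narrow range, and the difference was 10.3-fold. P4ha1 and P4ha2, the catalytic chains of collagen prolyl hydroxylase, differed by 1.23 and 1.28, and Maoa, monoamine oxidase A, by 1.65.

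How the LZCM arrays changed with time was not itself a contrast of the rule, although the rule used those arrays, and a low LZCM value at 24 h favours membership. The test is therefore not independent of the choice of members. In LZCM, 124 members (65.6%) were called lower at 24 h than at 6 h by limma at an adjusted p under 0.05, against 19.8% of tested probes, and 6 were called higher, against 19.9%. The remaining 59 were not called. The LZCM change had a median of -0.32 over the members and of -0.01 over all tested probes. A fall of at least 2-fold was seen in 18 members (9.52%), against 147 of all tested probes (1.19%).

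In aSCM, 181 members were called higher at 24 h than at 6 h, against 33.3% of tested probes, and 2 lower, against 29.1%, a direction that the rule largely sets. The median aSCM change was 0.95. As a share of the whole shift between the 24 h and 6 h differences, the LZCM fall had a median of 28.5%, with quartiles of 7.97% and 45.7%. In 38 members the LZCM fall exceeded the aSCM rise. Besides Cxcl13, the signal in aSCM was no higher at 24 h than at 6 h for Gpr65, a receptor that senses acid, for Emp3, a membrane protein, and for 1 member with no symbol. Gpr65 had 10.82, 10.91 and 10.84 in aSCM at 24 h, against 9.09, 9.09 and 9.16 in LZCM, while its LZCM arrays at 6 h had 11.26, 11.22 and 11.34. At the other end, Pxylp1, Nxn and B3galnt1 and 3 members with no symbol were called higher at 24 h in both media. Pxylp1, a phosphatase of proteoglycan synthesis, was higher by 0.51 in LZCM (limma, adjusted p = 3.45e-05) and by 1.58 in aSCM.

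The groups differed in how much the control arrays fell. Of the 17 leukocyte receptor and signalling members, 16 were called lower at 24 h in LZCM, with a median of -0.71. All 7 pathogen sensing members were, with a median of -0.56. Beside these counts, 65.6% of all members and 19.8% of tested probes were called lower. Of the 5 glycolysis members only Pgk1 was called lower, with a change of -0.44, and the group's median was -0.02. Glycan genes had 6 called lower and 2 higher, with a median of -0.28. A low LZCM value at 24 h favours membership, and the groups were drawn up after the values had been seen. These counts are therefore a description without a test between groups.

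**Figure D4:**
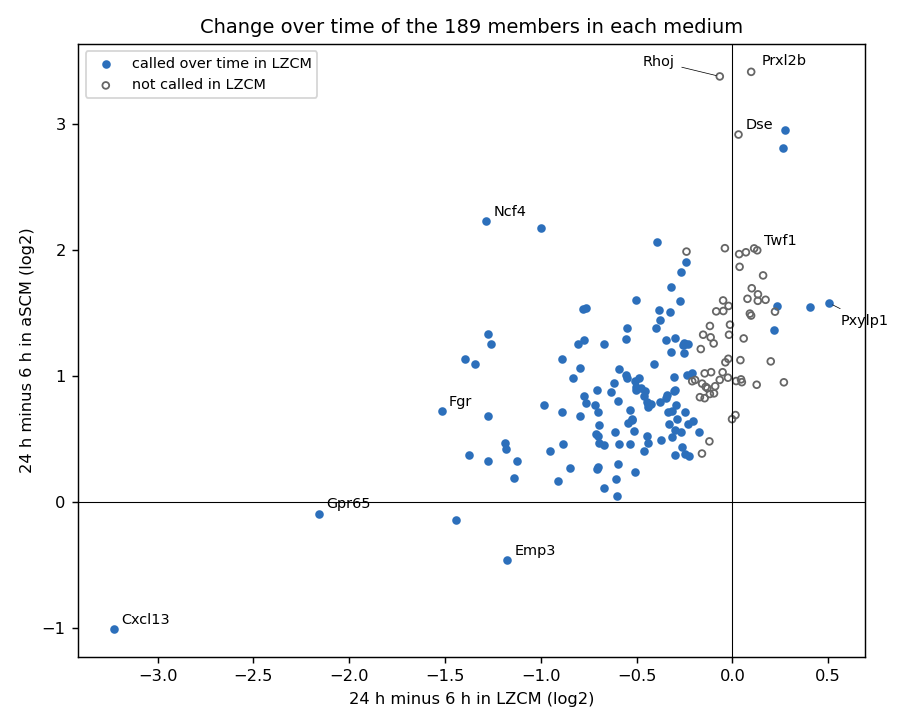
Each point is 1 of 189 members, with the 24 h minus 6 h change in LZCM on the x axis and in aSCM on the y axis, both log2 with n = 3 arrays a group. Filled points were called over time in LZCM by limma (124 lower, 6 higher), open points were not, and the named points include Cxcl13 at -3.23 in LZCM and -1.005 in aSCM.

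Summed markers of astrocytes, the oligodendrocyte lineage, neurons and fibroblasts or pericytes were higher in LZCM than in aSCM at 24 h. In LZCM these sums rose from 6 h to 24 h. In aSCM those of astrocytes, neurons and fibroblasts or pericytes fell, and that of the oligodendrocyte lineage overlapped between the times. The summed linear signal of 7 astrocyte probes was 3680 to 3761 in aSCM at 24 h, against 16076 to 17643 in LZCM at 24 h, and 4980 to 5218 in aSCM at 6 h, against 8347 to 8598 in LZCM at 6 h. For 10 oligodendrocyte lineage probes it was 7615 to 8452 in aSCM at 24 h, against 36943 to 37715 in LZCM at 24 h, and 7850 to 8555 in aSCM at 6 h, against 12955 to 14539 in LZCM at 6 h. For 10 neuron probes it was 2337 to 2408 in aSCM at 24 h, against 6425 to 6986 in LZCM at 24 h, while at 6 h the media overlapped, with 3934 to 4248 in aSCM, against 3681 to 4131 in LZCM. For 7 fibroblast or pericyte probes it was 1061 to 1088 in aSCM at 24 h, against 2694 to 2815 in LZCM at 24 h, and 1285 to 1492 in aSCM at 6 h, against 1689 to 1767 in LZCM at 6 h. Of these 7 probes, 4 were above background on no array. In LZCM, 5 of 6 tested astrocyte probes were called higher at 24 h than at 6 h, against 19.9% of all tested probes. For the oligodendrocyte lineage 5 of 10 were called higher and 1 lower, and for neurons 6 of 9 higher and 2 lower. Of the 3 tested fibroblast or pericyte probes, 1 was called higher and 1 lower. Gfap, the intermediate filament of astrocytes, averaged 9.01 in aSCM at 24 h, against 12.03 in LZCM at 24 h, and Olig1, a factor of the oligodendrocyte lineage, 11.96, against 14.69.

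Of 9 microglial marker probes, 7 were above background on all 12 arrays, among them Aif1 with means of 14.98 in aSCM and 15.08 in LZCM at 24 h. Their sum was 60040 to 63257 in aSCM at 24 h, against 100542 to 104437 in LZCM at 24 h. At 6 h it was 86051 to 88396 in aSCM, against 109231 to 115150 in LZCM. Of these 9, 7 were called lower at 24 h than at 6 h in LZCM, against 19.8% of all tested probes. Between the media, limma called 7 of the 9 lower in aSCM at 6 h and 1 higher, where 32.2% and 25.9% of all tested probes were. At 24 h it called 4 lower, 2 higher and 3 not, against 29.2% lower and 30.8% higher. Itgam is a member, while Trem2 and P2ry12 differed by -2.24 and -2.25 at 24 h. In bulk RNA, fewer cells of a type and less RNA per cell cannot be told apart. The part of these marker levels in the LZCM fall of leukocyte members was not tested. The endothelial list (6 probes) summed to 1938 to 2065 in aSCM at 24 h, against 972 to 1034 in LZCM. The T or NK cell list (6 probes) summed to 811 to 868, against 669 to 719, and 4 of its 6 probes were above background on no array.

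**Figure D5:**
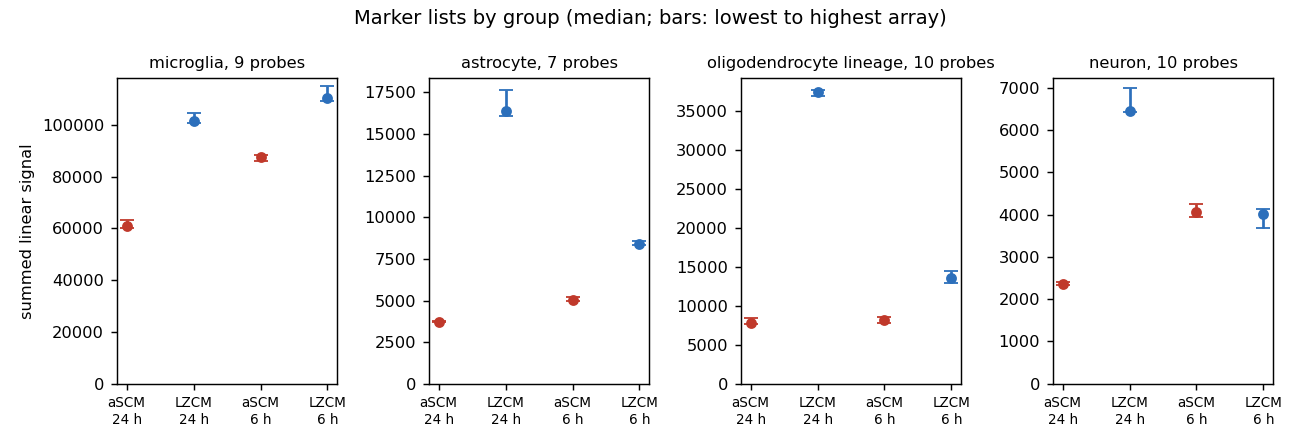
The y axis is the summed linear signal of each marker list (microglia 9, astrocyte 7, oligodendrocyte lineage 10 and neuron 10 probes) in aSCM (red) and LZCM (blue) at 24 h and 6 h, with the median of 3 arrays as a point and bars from the lowest to the highest array. The astrocyte and oligodendrocyte lineage sums are highest in LZCM at 24 h, where they reach 17643 and 37715.

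For a look at sequences shared by members, promoter windows were taken from RefSeq (GRCr8), which held 111 windows of 106 of the 131 named genes. A window ran from 250 bases before to 50 bases after a start of transcription. Motifs were searched on both strands. The interferon-stimulated response element, spelled GAAA and GAAA with any pair of bases between, occurred in 7 member genes (6.60%), against 4.12% of 27457 genes and 3.06% of the 7159 genes with a tested probe. The second share is the closer comparison, since every member passed the filter on low signal, and each motif is given with both in this order. The binding word of PU.1, the product of the member Spi1, spelled AGAGGAAGT, occurred in 2 (1.89%, against 0.874% and 0.908%). This word was not on the planned list of motifs. The E-box CACGTG occurred in 9 (8.49%, against 7.08% and 9.58%), the cyclic AMP element TGACGTCA in 4 (3.77%, against 2.00% and 3.37%), AP-1 (TGANTCA) in 12 (11.3%, against 8.04% and 5.57%) and the antioxidant element TGACNNNGC in 16 (15.1%, against 13.1% and 15.4%). The NF-kB word, GGGA and TTCC with any pair of bases between, occurred in 1 member gene, Tnpo1 (0.943%, against 1.38% and 1.61%). GAS (TTCNNNGAA) occurred in 7 (6.60%, against 9.39% and 7.14%), C/EBP (TTGCNNAA) in 10 (9.43%, against 11.4% and 8.73%) and E2F (TTTNNCGC) in 6 (5.66%, against 5.48% and 8.80%). For the E-box, the antioxidant element, C/EBP and E2F, whether members stood above or below thus turned with the set of genes they were compared with. Such matches are a description of letters.

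Below are the 250 bases before the start of transcription used for 6 members, 5′ to 3′ on the strand of the gene. Capitals mark the matches named here, and other matches of the searched motifs, such as AP-1 at -208 in Myd88 and C/EBP at -68 in Adgre1, stay in lower case. Myd88, RT1-N3 and Adgre1 show the interferon element on one strand or the other. Vav1, a signalling protein of blood cells, and Ms4a6a show AGAGGAAGT, and Ldha shows an E-box and a cyclic AMP element. The start used can lie inside the RefSeq bounds of a gene. Those bounds begin at 2248856 for Vav1 and end at 217839606 for Ms4a6a, and in both genes the marked AGAGGAAGT lies inside them. In Myd88 the element at -16 from the start overlaps a GAS match at -22. The windows of Vav1 and Adgre1 lie 80236 bases apart on chromosome 9.
Myd88, chr8:127956231-127956480, minus strand: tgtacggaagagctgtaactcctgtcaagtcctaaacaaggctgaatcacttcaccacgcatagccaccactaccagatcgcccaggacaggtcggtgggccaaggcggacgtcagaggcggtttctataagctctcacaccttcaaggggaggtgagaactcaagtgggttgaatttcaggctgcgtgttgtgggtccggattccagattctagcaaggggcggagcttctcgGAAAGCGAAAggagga
RT1-N3, chr20:2666239-2666488, plus strand: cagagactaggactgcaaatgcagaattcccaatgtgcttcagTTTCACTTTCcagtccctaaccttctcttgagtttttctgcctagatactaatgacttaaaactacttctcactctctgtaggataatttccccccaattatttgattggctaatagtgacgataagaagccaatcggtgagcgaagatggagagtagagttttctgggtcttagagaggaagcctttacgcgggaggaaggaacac
Adgre1, chr9:2329190-2329439, plus strand: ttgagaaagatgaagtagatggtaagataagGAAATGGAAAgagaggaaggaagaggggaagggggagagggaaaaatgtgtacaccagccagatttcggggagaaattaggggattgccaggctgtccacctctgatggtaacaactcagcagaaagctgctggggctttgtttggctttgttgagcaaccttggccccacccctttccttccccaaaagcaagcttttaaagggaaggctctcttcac
Vav1, chr9:2248705-2248954, plus strand: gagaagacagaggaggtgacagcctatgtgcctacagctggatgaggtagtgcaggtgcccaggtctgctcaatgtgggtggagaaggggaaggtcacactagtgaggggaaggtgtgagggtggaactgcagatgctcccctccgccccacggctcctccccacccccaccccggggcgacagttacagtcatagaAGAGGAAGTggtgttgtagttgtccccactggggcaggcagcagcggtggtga
Ms4a6a, chr1:217839574-217839823, minus strand: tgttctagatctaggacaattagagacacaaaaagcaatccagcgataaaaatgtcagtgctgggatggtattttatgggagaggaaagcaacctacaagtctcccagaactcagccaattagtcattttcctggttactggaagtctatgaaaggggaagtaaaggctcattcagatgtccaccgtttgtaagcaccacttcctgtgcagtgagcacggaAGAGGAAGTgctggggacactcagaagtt
Ldha, chr1:106507842-106508091, plus strand: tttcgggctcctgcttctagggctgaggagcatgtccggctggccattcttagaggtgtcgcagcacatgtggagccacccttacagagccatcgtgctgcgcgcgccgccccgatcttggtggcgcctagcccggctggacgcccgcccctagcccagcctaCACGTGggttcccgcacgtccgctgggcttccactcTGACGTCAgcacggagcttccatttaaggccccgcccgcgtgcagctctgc

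Among these 6, the differences at 24 h were 1.06 for Myd88, 2.10 for RT1-N3, 1.03 for Adgre1, 1.15 for Vav1, 1.52 for Ms4a6a and 1.28 for Ldha. Over time in LZCM, limma called Myd88, RT1-N3, Adgre1 and Vav1 lower at 24 h, with changes of -0.53, -1.28, -0.34 and -0.71, and did not call Ms4a6a or Ldha. The 3 printed genes with the interferon element were thus all called lower, and of the printed pair with AGAGGAAGT only Vav1 was. The interferon element occurred in 7 member genes, however. Those not printed include Cmahp, Gpr31 and Plbd1, with LZCM changes of -0.02, -0.05 and -0.16, and none of these was called. The printed genes were chosen after their values were seen, so nothing is read about the element from these calls.

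Members just inside the threshold at 24 h were Rab43 (1.0002), Tnpo1 (1.00), Cox17 (1.00), Exo5 (1.01) and Mk1 (1.02). Just outside were Emb (0.9997), Psmb8 (0.999), Acsl5 (0.997), Sgpl1 (0.996) and Cdyl2 (0.995). At the 6 h threshold, Nceh1 (0.4999), Msn (0.499), Ptpn7 (-0.491), Milr1 (0.484) and Spi1 (0.481) lay just inside, and Ltb (0.50005), Slc11a2 (0.503), Tuba4a (-0.507), Cklf (-0.517) and Kmo (-0.525) just outside. Of the 131 genes, 8 have further probes on the array. Both probes of Isyna1, which makes inositol phosphate from glucose phosphate, are members, with 1.53 and 1.47. The second probe of Exo5 lay just outside with 0.992, and that of Prkx had 0.50. The second probes of Car8, Enpp3, G3bp2, Snx6 and Wnk1 differed by between -0.11 and 0.18, at signals near background.

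The rule was also applied to 2 of the 3 replicate numbers at a time, and the difference was read in the arrays left out. Of 191 probes chosen without replicate 1, 166 had a difference of at least 1 at 24 h in the arrays left out and 190 had one above 0. Without replicate 2 this held for 169 and 181 of 181 probes, and without replicate 3 for 164 and 203 of 203. In the arrays left out, the late difference was thus at least 1 in most probes chosen and above 0 in all but 1 of them. The labels do not state whether these arrays come from separate cultures, so they may be technical repeats. The counts therefore describe agreement between arrays only. The limit at 6 h held less often: the 6 h difference stayed within ±0.5 in the left-out arrays for 156 of the 191, 161 of the 181 and 172 of the 203 probes, and it ran up to 1.32 in those of replicate 1.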

How the data were processed

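Illumina bead array signals of 12 samples were used. The authors deposited 1 log2 signal per probe and array, not normalized between arrays, and a second table of normalized log2 values, which differed from the values used here by a median of 0.05. Per the submitters' processing notes, R 2.9.1 was used; for scanner software, background subtraction and bead summary the sources used here give nothing. The log base was inferred from maxima just below a 16-bit scanner's ceiling.

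Here the log2 signals were quantile normalized without background correction, which understates folds of dim probes. Background was a normal curve around each array's mode with the spread of the signals below it (one-sided p under 0.05). The 12351 probes above it on at least 3 of 12 arrays entered 1 limma fit (limma 3.58.1, R 4.3.3) of 4 group means, with 8 residual and 9.38 prior degrees of freedom. A call is a Benjamini-Hochberg adjusted p under 0.05 within a contrast. The number of arrays limits the precision, and the median SE of a difference at 24 h was 0.08. Replicate numbers were not used to pair arrays.

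Symbols came from the platform annotation (13793 of 22523 probes with 1 symbol, 8730 with none), updated through gene ID in RefSeq. Members, gene lists and role groups were chosen with earlier results of these data known. Named genes are the 25 named members with the largest 24 h difference, members on a list, those nearest a threshold, the 5 largest called rises and falls over time in LZCM, genes with several probes and the 5 members of highest LZCM signal. Further genes, chosen after their values were seen, illustrate the role groups, the marker lists and the promoters. In simulated data for the LZCM time comparison (11807 probes), the fit recovered 93 of 100 altered 1.5-fold and 99 of 100 altered 2-fold and made 15 false calls. There all groups shared the LZCM means at 6 h, noise was independent between arrays and the dimmest probes were left unaltered. Far fewer probes were altered than were called in the data, so these rates need not hold for the data. Alternatives covered background correction, scaling, filter, thresholds, variance model, replicate block and each array left out.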

Additional observations from a re-analysis of the deposited data

Results flagged for a closer look

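The aSCM effect at 24 h differed from that at 6 h in all 189 members when the difference itself was tested (limma, adjusted p under 0.05), as it did, in the direction of a higher effect at 24 h, in 28.4% of the tested probes. The rule for members required a large effect at one time and a small one at the other, so this count follows from the choice of members.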

How the results depend on the processing

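With the threshold at 24 h raised to 1.5 the set held 65 members, and with the 6 h limit at 0.25 it held 114. Other scalings, background corrections and the authors' normalized table gave between 160 and 236 members, of which 124 to 187 were among the 189, and leaving out 1 array at a time gave 181 to 199. With a background correction and offset of 16, all 189 stayed at least 1 higher at 24 h, but 163 kept a 6 h difference under 0.5. Members that left this limit at 6 h include Enpp3 (0.73), S100a8 (0.58), Lyn (0.53), Msn (0.53), Rhoj (-0.68) and Mefv (-0.72). Without normalization, calls dropped to 4432 for the media at 24 h, 4006 for the difference between times, 2761 for LZCM over time and 5042 for aSCM over time, against 7405, 6813, 4905 and 7701. The count of members called lower over time in LZCM ran from 106 to 130 over all alternatives. That of members called higher, 6, was 2 at an adjusted p under 0.01, 3 to 8 when 1 array was left out (3 without LZCM 6 h replicate 1), and 0 by limma without normalization, where 1 member had an unadjusted p under 0.05. The cause was not tested. B3galnt1 lost its call in LZCM under 75th percentile scaling, without normalization, without LZCM 6 h replicate 1 and without LZCM 24 h replicate 2, and Pxylp1 and Nxn without normalization. Scaling to the 75th percentile moved the median difference of all tested probes at 24 h to 0.13, against 0.03.

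Deviations of same-numbered arrays correlated at -0.12 to 0.29 (median 0.06, 6 of 18 pairs over 0.1), against -0.25 to 0.21 (median -0.03, 3 of 36 over 0.1) for arrays of different numbers. For replicate 3 all 6 same-number correlations were above 0. Not every pair passed 0.1, and 5 of 12 arrays correlated best with their own number, so the numbers were not used to pair arrays. With a replicate block, 125 members were called lower and 7 higher over time in LZCM. Signal over background limits the 7 members with no LZCM array above background at 24 h, for which only a bound can be given.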
